A study of Arabidopsis thaliana with 51 samples.

Results

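The 4 libraries of ddm1-1 flowers in set B of a bisulfite sequencing study of Arabidopsis thaliana were compared with 3 Col libraries of the same set. They were chosen by their labels, 4 of 51 libraries in the series and 4 of 13 in set B. The ddm1-1 libraries came from plants without a construct (Wt flowers), from plants with ARE//AGe (one library of sMf and one of rMf flowers) and from plants with Ctr//AGe (rMf flowers). The Col libraries were Wt A and Wt B, both without a construct, and Ctr//AGe with rMf flowers. All 7 came from young flowers, and each library pooled several lines of the same flower phenotype, so a level is an average over lines. The ddm1-1 and Ctr//AGe groups had 1 library each and only Col Wt had replicates, so p-values measure the spread between these pooled libraries. The series title spells out ARE as an anti-RdDM element, and the labels explain neither AGe, Ctr, sMf nor rMf.

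DDM1 is a chromatin remodeler of the SWI2/SNF2 family that gives DNA methyltransferases access to nucleosomal DNA, above all in heterochromatin and transposons. Plant DNA is methylated at CpG, which MET1 copies onto the new strand after replication, at CHG, kept largely by CMT3, and at CHH (H is A, C or T), made by CMT2 and by the DRM2 branch of RNA-directed DNA methylation (RdDM). Mutants of ddm1 are known for loss of methylation from repeats and for epialleles that persist once they have formed, whereas CpG methylation within genes is known to depend less on DDM1. MET1 mutants lose CpG methylation in genes and repeats alike, and the 4 Met1-1 libraries of set B served as a second reference.

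The deposited table lists 5709 cytosine entries from 10374202 to 10391499 in TAIR10 and names no chromosome, and 5222 were analysed. Going by the construct names, this is the neighbourhood of AG (AT4G18960), which encodes a MADS-box factor of floral organ identity and lies on chromosome 4 beside AT4G18950 and AT4G18970 in the TAIR10.1 gene table. The regions named here were not placed relative to exons and introns, and neither expression nor the DDM1 gene was measured, so the ddm1-1 label has no check of its own. Values are methylation levels in percent without read counts, so the depth behind each level is unknown. The share of entries given as rc in place of a level, treated as missing, was 30.3% in ddm1-1 Wt, 21.3% in ddm1-1 Ctr//AGe rMf, 9.82% and 7.12% in ddm1-1 ARE//AGe sMf and rMf, 21.8% in Col Ctr//AGe rMf and 6.24% and 4.50% in Col Wt A and B. Of the 7 libraries, Col Wt B alone sits in another block of columns. A level can hold reads of the construct as well as of the native locus. The regions are the AGp target (10380602 to 10382801), the AGe target (10384302 to 10387101) and 3 clusters of natural CpG methylation, found in Col Wt libraries of the other sets as windows of 100 bp with at least 30% CpG methylation. The clusters lie upstream of the targets (10377002 to 10377701), at the start of the AGp target (the middle cluster, 10380602 to 10380801) and downstream of the targets (10389602 to 10390701).

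The first question was how natural CpG methylation differed in ddm1-1. The downstream cluster was low in all 4 ddm1-1 libraries, and the upstream cluster overlapped with Col. In the downstream cluster the mean CpG level was 5.54% in ddm1-1 Wt, 12.1% in ARE//AGe sMf, 4.71% in ARE//AGe rMf and 2.61% in Ctr//AGe rMf, against 26.9% in Col Wt A, 33.5% in Col Wt B and 36.5% in Col Ctr//AGe rMf. The highest ddm1-1 library lay below the lowest Col library. The means were 6.24% ± 4.09 (SD, n = 4) and 32.3% ± 4.93 (n = 3), a difference of -26.1 percentage points. With rows left as deposited, out of step with the coordinates, the difference was -5.97 points. The two-sided exact permutation p was 0.0571, the smallest that 4 libraries against 3 can give, and 0.0980 after Benjamini-Hochberg adjustment over 12 tests. With all 5 Col libraries of set B the difference was -22.4 points (exact permutation p = 0.0159, the smallest for these group sizes). Within the block of columns that holds 6 of the 7 libraries, without Col Wt B, the difference was -25.5 points in the downstream cluster, 1.47 in the upstream cluster, 0.883 for CpG outside targets and clusters and -3.33 for CpG outside the targets and the first 500 bp of the upstream cluster.

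**Figure D1:**
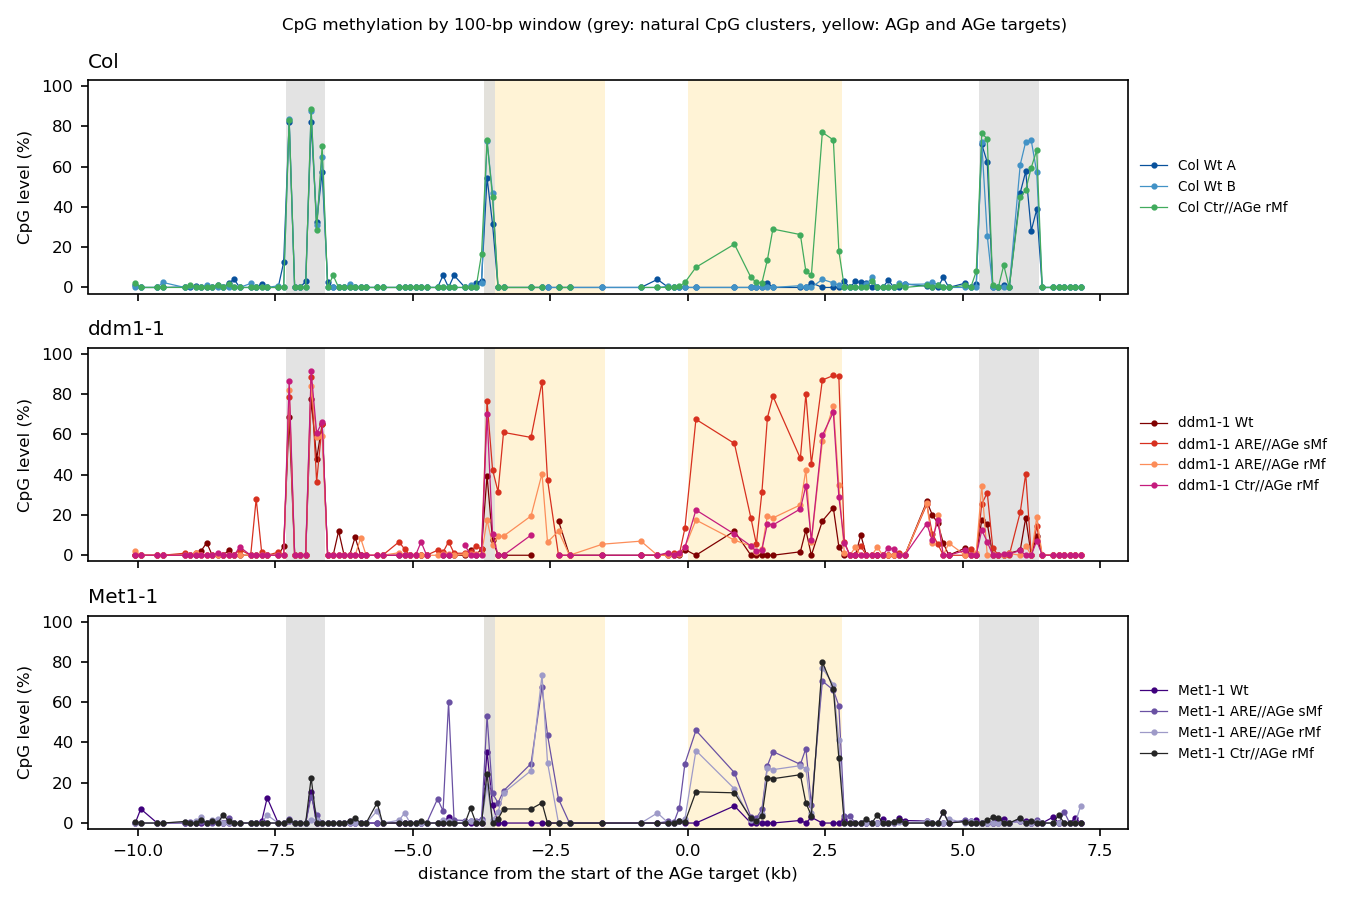
Mean CpG level (percent, y axis) in windows of 100 bp against the distance from the start of the AGe target (kb, x axis), 1 line a library, in Col, ddm1-1 and Met1-1 flowers of set B. The downstream cluster (grey, right) averaged 32.3% in the 3 Col and 6.24% in the 4 ddm1-1 libraries, and the upstream cluster (grey, left) 58.5% and 59.9%.

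The lower levels were spread over the methylated part of the downstream cluster rather than at one site. Of its 69 CpG positions with a level in all 7 libraries, 26 were lower in all 4 ddm1-1 libraries than in all 3 Col libraries and 0 were higher. Over all 326 such CpG positions outside the targets or in a cluster, the share lower without overlap was 7.98% and the share higher was 1.84%, and all 26 of the lower positions lay in the downstream cluster. Of 38 positions in this cluster with a Col mean of at least 30%, 21 had a ddm1-1 mean under 10%. The counts were 0 of 21 in the upstream cluster and 21 of 65 over all CpG positions outside the targets or in a cluster. Picking positions by the Col levels being compared favours lower values in ddm1-1, so these counts are descriptive only. The CpG at 10390583 was at 57%, 85% and 86% in Col Wt A, Wt B and Ctr//AGe rMf and listed at 0 in all 4 ddm1-1 libraries. The CpG at 10390584, its partner on the other strand, was at 40%, 83% and 71% in Col and again at 0 in all 4. The CpG at 10389750 kept 43% in ddm1-1 ARE//AGe sMf and 14% in ddm1-1 Wt, was at 0 in the other 2, and was at 60% to 92% in Col.

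The windows of the cluster differed in how much ddm1-1 kept. In the window from 10390502 to 10390601 all 4 ddm1-1 libraries were listed at 0 at each of 6 CpG positions, and Col was at 53.6% ± 23.0 (n = 3). The window from 10389602 to 10389701 had the highest Col level outside the targets and the upstream cluster, 73.2% ± 2.93, and retained 12.5% to 34.5% in ddm1-1. In the window from 10390402 to 10390501 ddm1-1 ARE//AGe sMf was at 40.5%, ddm1-1 Wt at 18.7%, ARE//AGe rMf at 4.83% and Ctr//AGe rMf at 0, against 48.3% to 72.3% in Col. The ddm1-1 libraries thus differed among themselves at the same window, and ARE//AGe sMf was the highest of them over the cluster. CpG positions pair across the strands as dyads, and dyads with both strands at 50% or more numbered 7, 15 and 14 of 35 in Col Wt A, Wt B and Ctr//AGe rMf. In ddm1-1 ARE//AGe sMf 1 of 35 dyads was of this kind and in the other 3 ddm1-1 libraries 0 were.

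The upstream cluster gave another picture. Its CpG level was 54.9% in ddm1-1 Wt, 57.6% in ARE//AGe sMf, 61.1% in ARE//AGe rMf and 66.1% in Ctr//AGe rMf, and 56.2%, 58.7% and 60.6% in Col Wt A, Wt B and Ctr//AGe rMf. The groups overlapped, with means of 59.9% ± 4.85 (n = 4) and 58.5% ± 2.23 (n = 3) and an exact permutation p of 0.743. Its first 500 bp, which carried CpG methylation only, were at 61.3% ± 5.40 in ddm1-1 and 64.3% ± 2.56 in Col (exact permutation p = 0.514). Among the 5 positions highest in Col, the CpG at 10377072 was at 100% in all 3 Col libraries and lower, at 75%, 53% and 79%, in ddm1-1 Wt, ARE//AGe sMf and ARE//AGe rMf, with no level in Ctr//AGe rMf. The CpG at 10377069 was at 92% to 100% in the 3 Col libraries and at 86%, 88%, 100% and 100% in ddm1-1. The CpG at 10377470 was at 88% to 100% in Col and at 73% to 100% in ddm1-1. The CpG at 10377071, next to 10377072, was lower in 3 of the ddm1-1 libraries, at 38%, 43% and 71%, and at 100% in ARE//AGe rMf, against 91% to 100% in Col. Dyads with both strands at 50% or more numbered 11 of 17, 10 of 17, 13 of 18 and 11 of 14 in ddm1-1 and 11 of 18, 12 of 18 and 11 of 16 in Col. Taken within each library, the downstream level minus the upstream level was -53.7 points ± 7.94 in ddm1-1 and -26.2 ± 2.73 in Col, without overlap (exact permutation p = 0.0571, adjusted 0.0980).

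Met1-1 flowers were low at both clusters. The upstream cluster was at 0.833% to 5.49% in the 4 Met1-1 libraries, against 54.9% to 66.1% in ddm1-1 (exact permutation p = 0.0286, adjusted 0.0980). The downstream cluster was at 0.214% to 0.886% in Met1-1 and at 2.61% to 12.1% in ddm1-1 (exact permutation p = 0.0286, adjusted 0.0980). Both unadjusted p-values are the smallest that 4 against 4 can give. Across the other 43 libraries of the series, neither ddm1-1 nor Met1-1, the downstream cluster ranged from 17.4% to 36.5% with a median of 24.9%, above every ddm1-1 library.

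**Figure D2:**
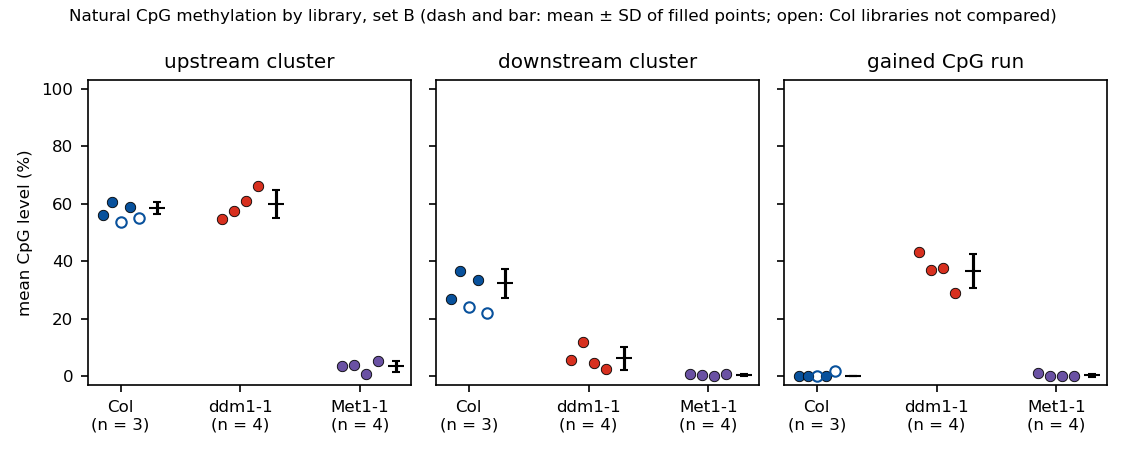
Mean CpG level (percent, y axis) of the upstream cluster, the downstream cluster and the gained CpG run in each library of set B (points), with the mean ± SD of the filled points. Open points are the Col libraries outside the comparison of 4 with 3. Met1-1 was near 0 in all 3 panels, and ddm1-1 overlapped with Col upstream (54.9% to 66.1% against 56.2% to 60.6%), lay below it downstream and lay above it in the gained run.

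The middle cluster, 6 CpG positions at the start of the AGp target, was uneven in ddm1-1. It was at 53.8% in ddm1-1 ARE//AGe sMf, 30.3% in Ctr//AGe rMf, 18.3% in Wt and 9.33% in ARE//AGe rMf, and at 39.2%, 55.5% and 54.3% in Col Wt A, Wt B and Ctr//AGe rMf. ARE//AGe sMf lay within the range of Col and the other 3 below it, so the groups overlapped (28.0% ± 19.3 against 49.7% ± 9.11, exact permutation p = 0.114). Since this cluster is part of the AGp target, methylation set by a construct and natural methylation cannot be told apart there in the libraries with a construct. In plants without one, ddm1-1 Wt at 18.3% was below both Col Wt libraries.

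Outside the targets and clusters, where Col was nearly free of CpG methylation, ddm1-1 was slightly higher, mainly at one short run of positions. The mean CpG level was 1.97%, 2.10%, 1.36% and 1.37% in ddm1-1 Wt, ARE//AGe sMf, ARE//AGe rMf and Ctr//AGe rMf, against 0.696%, 0.396% and 0.941% in Col Wt A, Wt B and Ctr//AGe rMf. The groups did not overlap (1.70% ± 0.391 against 0.678% ± 0.273, a difference of 1.02 points, exact permutation p = 0.0571, adjusted 0.0980). Most of the difference lay in a run of 8 CpG positions within 27 bp, from 10388678 to 10388704, which was picked after its values were seen. Without the run the levels were 0.757% to 1.30% in ddm1-1 and 0.404% to 0.963% in Col, and the groups overlapped. The difference was then 0.284 points (exact permutation p = 0.229). Since the run was taken out for its values in these same libraries, this p is no test of what remains. The run had a mean CpG level of 43.4% in ddm1-1 Wt, 36.9% in ARE//AGe sMf, 37.5% in ARE//AGe rMf and 29.0% in Ctr//AGe rMf and was listed at 0 in all 3 Col libraries. In ARE//AGe rMf and Ctr//AGe rMf 6 and 4 of the 8 positions had a level. Its CpG at 10388693 was at 60%, 56%, 50% and 50% in the 4 ddm1-1 libraries, and its CpG at 10388695 at 70%, 47%, 56% and 44%. The 7 CHG and CHH positions in the run were listed at 0 in ddm1-1 Wt and both ARE//AGe libraries and averaged 10.5% in Ctr//AGe rMf. Met1-1 was at 0 to 1.25% in the run. The gain was not limited to ddm1-1: hdp1-1 Wt of set C had 62.0%, hdp1-1 ARE//AGe sMf 46.0% and Col Wt A of set A 20.8%, and the other 40 libraries that were neither ddm1-1 nor Met1-1 were at 5% or less.

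A further CpG with a gain, at 10377580 inside the upstream cluster and likewise singled out after its values were seen, was at 80%, 69%, 78% and 100% in ddm1-1 Wt, ARE//AGe sMf, ARE//AGe rMf and Ctr//AGe rMf. It was at 6%, 0% and 9% in Col Wt A, Wt B and Ctr//AGe rMf. The levels did not overlap between the groups. Its partner on the other strand, at 10377581, was at 67%, 0%, 83% and 100% in ddm1-1 and at 23%, 8% and 0% in Col, so ARE//AGe sMf carried this methylation on one strand in the listed values. Among the other 43 libraries 2 exceeded 50% at 10377580, namely M317 AGe sMf B at 86% and Col UF2//AGe sMf/rMf at 71%.

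Outside the targets and the first 500 bp of the upstream cluster, with the downstream cluster and the gained run included, the CpG level was 4.20%, 5.04%, 3.44% and 3.23% in ddm1-1 Wt, ARE//AGe sMf, ARE//AGe rMf and Ctr//AGe rMf and 5.91%, 6.66% and 8.70% in Col Wt A, Wt B and Ctr//AGe rMf. The means were 3.98% ± 0.819 and 7.09% ± 1.45, without overlap (exact permutation p = 0.0571, adjusted 0.0980). Outside the targets CHG methylation was 0.863% ± 0.273 in ddm1-1 and 0.685% ± 0.0965 in Col (exact permutation p = 0.286), and CHH methylation 0.906% ± 0.169 and 0.668% ± 0.108 (exact permutation p = 0.171). Both were at most 1.04% in each of the 7 libraries, and the groups overlapped.

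The second question was whether the construct targets were methylated to the same level in ddm1-1. Ctr//AGe with rMf flowers was the only construct and phenotype measured in both, with 1 library each, so no test of the pair was possible. In the AGe target CpG was at 20.3% in ddm1-1 and 20.0% in Col, CHG at 49.6% and 52.8%, and CHH at 27.4% and 29.2%. The differences of 0.365, -3.20 and -1.83 points stand beside SDs of 2.67, 2.61 and 2.26 points between the Col AGe rMf replicates of set A (n = 2), which carried a related construct. All 52 CpG, 65 CHG and 628 CHH positions of the AGe target had a level in both libraries, so no rc entry is part of these means.

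The close means hid a difference in shape. The windows of the AGe target were divided by their level in the Col AGe rMf libraries of set A, which took no part in the comparison. Of the 10 windows with at least 60% CHG there, ddm1-1 Ctr//AGe rMf was lower than Col Ctr//AGe rMf in 10, at a mean of 64.3% against 77.4%. Of the 8 windows below 60% it was higher in 6, at 32.0% against 21.8%. In CHH, ddm1-1 was lower in 16 of the 17 windows with at least 30%, at 31.7% against 39.8%, and higher in 10 of the 11 windows below 30%, at 19.8% against 10.4%. ddm1-1 ARE//AGe rMf was close to ddm1-1 Ctr//AGe rMf, at 60.4% and 30.5% in the upper and lower CHG windows and 30.8% and 18.7% in the upper and lower CHH windows. ddm1-1 ARE//AGe sMf was at 74.2% and 47.9% in CHG and 33.3% and 20.4% in CHH. Met1-1 Ctr//AGe rMf was at 83.0% in the upper and 39.3% in the lower CHG windows, and at 37.5% and 18.7% in the upper and lower CHH windows. In the lower windows both mutants exceeded Col Ctr//AGe rMf. In the upper windows Met1-1 was above it in CHG and below it in CHH, and ddm1-1 was below it in both. Of the other Col libraries of set B with an AGe construct, Ctr//AGe Wt was at 47.2% and 8.75% in the upper and lower CHG windows and AGe rMf at 44.5% and 13.2%. The upper CHG windows of these Col libraries were thus below those of ddm1-1, and the difference in shape holds for the 1 matched pair.

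**Figure D3:**
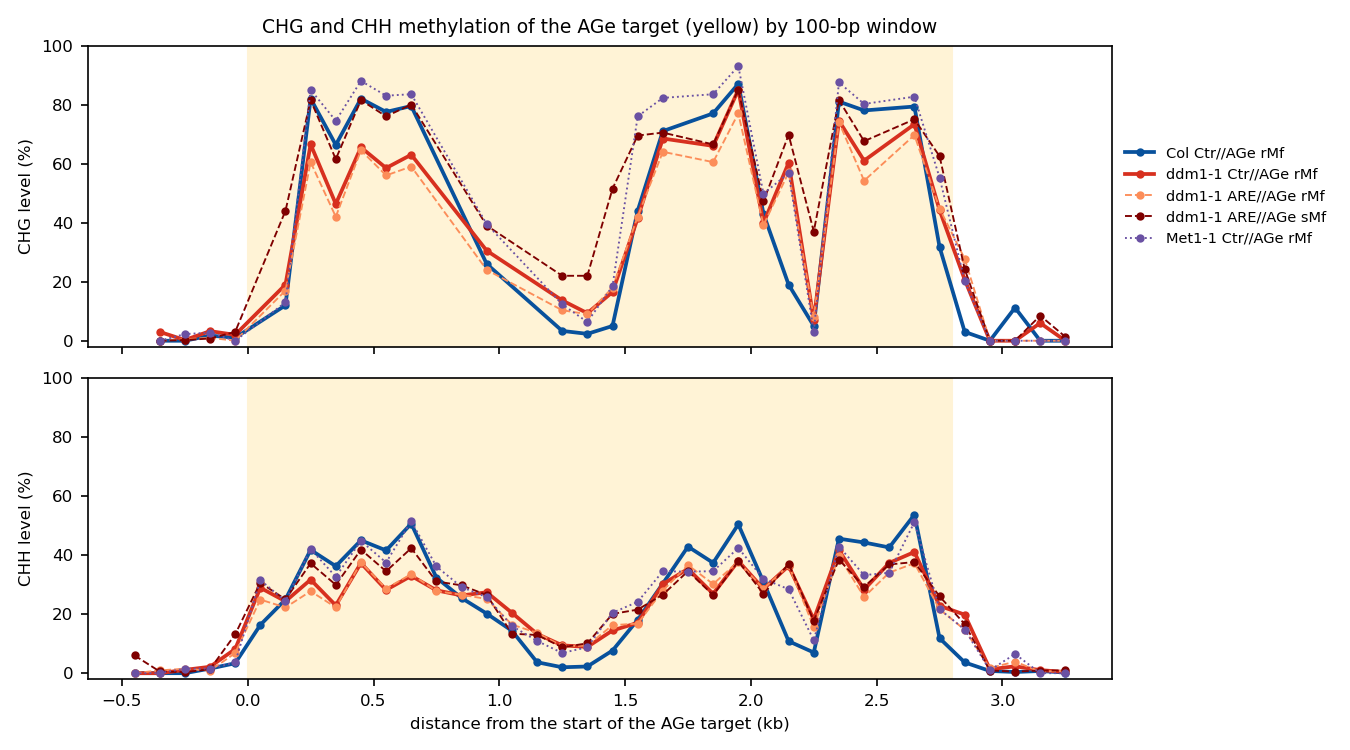
CHG (top) and CHH (bottom) level (percent, y axis) in windows of 100 bp against the distance from the start of the AGe target (kb, x axis), 1 line a library of set B. ddm1-1 Ctr//AGe rMf (red) ran below Col Ctr//AGe rMf (blue) at the peaks and above it in the troughs, with means of 64.3% and 77.4% in the upper CHG windows and 32.0% and 21.8% in the lower ones.

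The largest difference between the pair in the targets lay in the window from 10386402 to 10386501. Its 4 CHG positions averaged 60.2% in ddm1-1 Ctr//AGe rMf and 19.0% in Col Ctr//AGe rMf, its 18 CHH positions 36.3% and 10.8%, and its 2 CpG positions 34.5% and 8.00%. The same window was at 57.0% CHG in ddm1-1 ARE//AGe rMf, 69.8% in ddm1-1 ARE//AGe sMf and 56.8% in Met1-1 Ctr//AGe rMf, and at 16.5% in Col AGe rMf of set B. In Col AGe rMf of set A it was at 38.1%. The mutants were thus high and the Col libraries of set B low, with the Col libraries of set A between. In the other direction, the window from 10384602 to 10384701 was at 46.3% CHG in ddm1-1 and 66.3% in Col, and the window from 10384902 to 10385001 at 33.0% CHH in ddm1-1 and 50.6% in Col. Over all 3540 cytosines with a level in both libraries, 50 were higher in ddm1-1 by at least 25 points (1.41%) and 77 lower (2.18%). In the downstream cluster 41 of 70 CpG positions were lower by this margin, and in the AGe target 13 of 628 CHH positions were higher and 15 lower.

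The AGp target is not named in Ctr//AGe, and little methylation lay there. Its CpG level of 12.8% in ddm1-1 and 23.3% in Col came from the middle cluster, and outside that cluster CpG was at 1.11% and 0, over 9 and 8 of 22 positions with a level. CHG outside the middle cluster was at 5.42% in ddm1-1 and 0.737% in Col, and CHH at 4.63% and 0.80%. In the whole AGp target, on the 98 CHH positions with a level in both, the values were 3.48% and 3.05%. These positions include 19 of the middle cluster, where Col was the higher. CHH in that cluster was at 2.05% in ddm1-1 and 6.11% in Col over the positions with a level. The shared CHH positions outside it were not compared separately, so the small gap does not speak for them. On the 24 shared CHG positions of the whole AGp target the values were 4.58% and 2.00%.

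**Figure D4:**
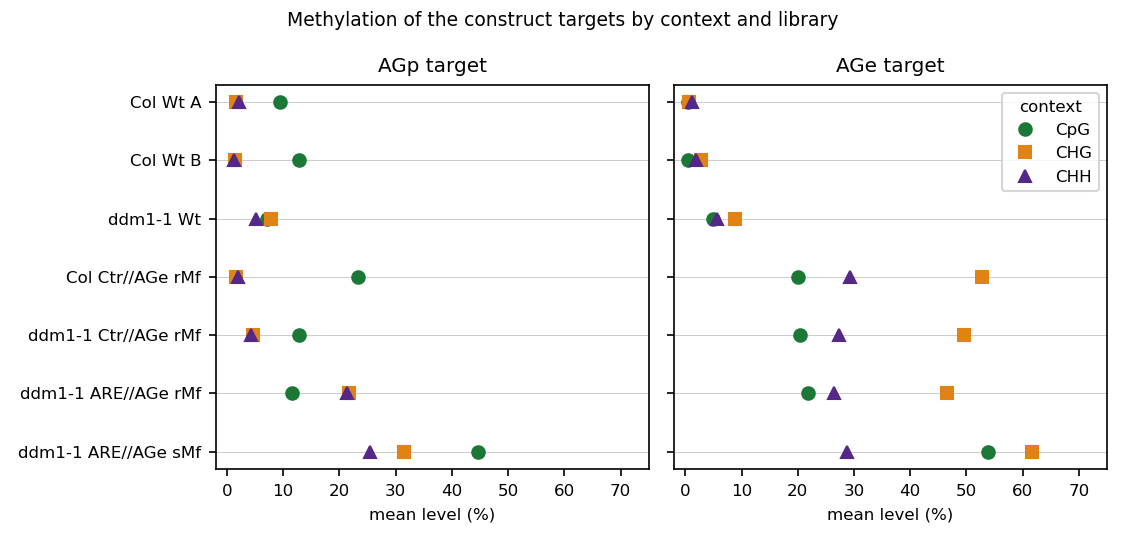
Mean level (percent, x axis) of CpG (circles), CHG (squares) and CHH (triangles) in the AGp and AGe targets for the 7 libraries (y axis). In the AGe target ddm1-1 and Col Ctr//AGe rMf nearly coincided, ddm1-1 ARE//AGe sMf had the highest CpG level (53.8%), and ddm1-1 Wt (4.85% CpG, 8.81% CHG, 5.60% CHH) lay above both Col Wt libraries.

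ddm1-1 flowers without a construct were compared with the 2 Col Wt libraries. The AGe target had 8.81% CHG, 5.60% CHH and 4.85% CpG in ddm1-1 Wt. Col Wt A and B had 0.597% and 2.75% CHG, 1.14% and 1.82% CHH, and 0.549% and 0.538% CpG. ddm1-1 Wt was above both in each context, and with 1 library against 2 the mean levels were not tested. On the positions with a level in all 3 libraries CHG was at 9.0% against 0.348% and 3.33%, and CHH at 5.84% against 1.10% and 1.64%. Met1-1 Wt was at 1.26% CHG, 1.43% CHH and 0.915% CpG. In the targets 42.6% of the entries of ddm1-1 Wt were rc, the highest share of the 13 libraries of set B, and the part of this in the values was not tested.

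The AGp target of ddm1-1 Wt had 7.80% CHG and 5.21% CHH, against 1.65% and 1.39% CHG and 2.05% and 1.32% CHH in Col Wt A and B. On the 25 CHG positions with a level in all 3 the values were 7.80%, 2.76% and 2.36%. On the 16 CHG positions of the AGp target with a level in all 7 libraries the difference turned to -1.66 points, so the CHG excess rested on positions missing from other libraries. CpG was lower, at 7.06% against 9.40% and 12.8%, and outside the middle cluster it was 1.42% against 0 and 0. Over all 3537 cytosines with a level in the 3 libraries, 73 were higher in ddm1-1 Wt than in both Col Wt libraries by at least 25 points (2.06%) and 36 lower (1.02%). Of 409 CHH positions in the AGe target 27 were higher and 0 lower, and of 69 CpG positions in the downstream cluster 0 were higher and 25 lower.

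**Figure D5:**
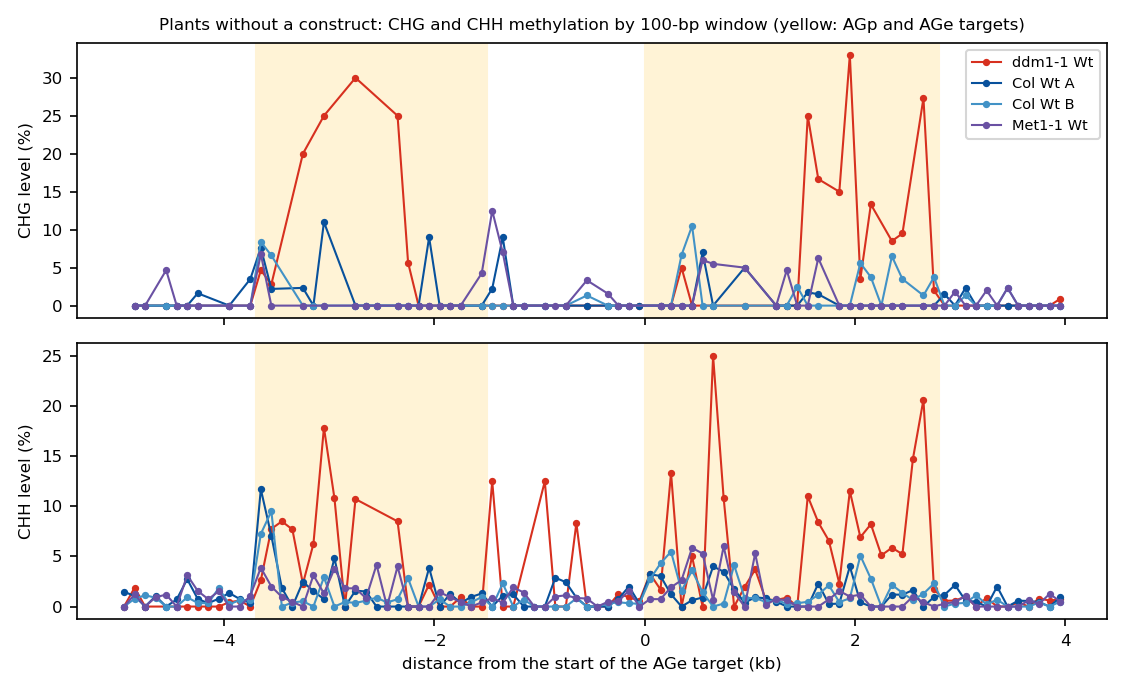
CHG (top) and CHH (bottom) level (percent, y axis) in windows of 100 bp against the distance from the start of the AGe target (kb, x axis) in flowers without a construct. ddm1-1 Wt reached 30% CHG in the AGp target (mean of 2 positions) and 27.3% at the end of the AGe target (mean of 3). Col Wt was at 1.33% or less in these windows.

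The CHG windows named here were picked for their high level in ddm1-1 Wt. They were also high in ddm1-1 plants with ARE//AGe, and in the AGe target with Ctr//AGe. High levels with a construct were not particular to ddm1-1. The AGp window from 10381502 to 10381601 had 30% CHG in ddm1-1 Wt, 84.0% and 77.0% in ddm1-1 ARE//AGe sMf and rMf, and 0 in both Col Wt libraries. It holds 2 CHG positions, and the one at 10381539 was at 60% in ddm1-1 Wt. With Ctr//AGe rMf the window was at 20% in ddm1-1 and 0 in Col, on 1 position each. Met1-1 ARE//AGe sMf and rMf were at 85.5% and 89.5% there, and Met1-1 Ctr//AGe rMf at 29%. The AGe window from 10386902 to 10387001 had 27.3% CHG in ddm1-1 Wt, 73.3% in ddm1-1 Ctr//AGe rMf, and 0 and 1.33% in Col Wt A and B. It was at 79.3% in Col Ctr//AGe rMf and 82.7% in Met1-1 Ctr//AGe rMf. In Col Ctr//AGe Wt and Col AGe rMf of set B it was at 32.3% and 46.3%. Over 11 windows of the AGe target the CHG profile of ddm1-1 Wt had a Pearson's r of 0.81 with ddm1-1 Ctr//AGe rMf, of 0.61 with Col Ctr//AGe rMf and of -0.27 and -0.22 with Col Wt A and B. Over 27 windows its CHH profile had an r of 0.60 with ddm1-1 Ctr//AGe rMf, 0.54 with Col Ctr//AGe rMf, and 0.51 and 0.53 with ddm1-1 ARE//AGe sMf and rMf. Over 7 windows of the AGp target its CHG profile had an r of 0.97 with ddm1-1 ARE//AGe rMf and of 0.55 with ddm1-1 Ctr//AGe rMf. For CHH in the AGp target these were 0.71 over 18 windows and 0.30 over 17. These values describe windows of one region with shared base composition and carry no test.

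ARE//AGe was not measured in Col of set B, so the 2 ddm1-1 ARE//AGe libraries stand beside Met1-1 with the same construct. They were methylated in both targets. In the AGe target sMf flowers had 53.8% CpG, 61.7% CHG and 28.7% CHH, and rMf flowers 21.8%, 46.5% and 26.5%. In the AGp target sMf flowers had 44.7% CpG, 31.6% CHG and 25.4% CHH, and rMf flowers 11.5%, 21.7% and 21.3%. The phenotypes differed most in CpG and least in CHH, with 1 library each. Met1-1 ARE//AGe sMf and rMf had 27.7% and 24.3% CpG in the AGe target, and 60.2% and 64.5% CHG. CpG was therefore higher in sMf by 32.1 points in ddm1-1 and by 3.40 in Met1-1, and this was not tested. CHG and CHH were also pooled in windows of 100 bp over the AGp target and its flanks. Windows at 10% or more reached from 10380602 to 10382001 in ddm1-1 ARE//AGe sMf, and from 10380802 to 10382001 in rMf. In Met1-1 ARE//AGe sMf they reached from 10379702 to 10383001, past both ends of the target, and in rMf from 10380802 to 10382601.

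Single cytosines were tested with limma over the 7 libraries, with the construct as a term and levels on a log2 odds scale. Of 1429 cytosines tested, 25 were higher in ddm1-1 at an adjusted p under 0.05 (1.75%) and 5 lower (0.35%). At an unadjusted p under 0.05, 96 were higher and 56 lower. In the downstream cluster 2 of 41 CpG were called lower and 27 had an unadjusted p under 0.05, with a median log2 odds difference of -5.20, against 0.00 over all cytosines tested. The 2 were the CpG at 10390583 (difference in log2 odds -8.55, SE 0.755, limma adjusted p = 0.0345) and at 10390586, which was at 36%, 62% and 50% in Col Wt A, Wt B and Ctr//AGe rMf and at 0 in all 4 ddm1-1 libraries (limma adjusted p = 0.0345). In the gained run the CpG at 10388692, 10388693 and 10388695 were called higher, with limma adjusted p of 0.0345, 0.00978 and 0.0263. The CpG at 10388692 had no level in ddm1-1 Ctr//AGe rMf, so its estimate rests on ddm1-1 Wt against the Col Wt libraries. No CpG was called in the upstream cluster, where at an unadjusted p under 0.05 there was 1 higher and 1 lower of 26 tested, or in the targets, where 1 of 52 in AGe and 0 of 10 in AGp outside the middle cluster were higher.

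The calls outside CpG lay mostly in the AGp target, with 15 of 125 CHH and 1 of 14 CHG positions higher. The CHG at 10381539 was at 60%, 81% and 76% in ddm1-1 Wt, ARE//AGe sMf and ARE//AGe rMf, had no level in ddm1-1 Ctr//AGe rMf, and was listed at 0 in the 3 Col libraries (limma adjusted p = 0.0345). The CHH at 10381554 was at 33%, 48% and 55% in these 3 ddm1-1 libraries and at 0 in Col (limma adjusted p = 0.0361). The CHH at 10381240, 10381518, 10381530 and 10381549 had the same pattern, at 25% to 33% in ddm1-1 Wt. Because no Col library of set B carries ARE//AGe, the fit estimates the allele at these positions from ddm1-1 Wt against the Col Wt libraries alone, so these calls rest on 1 ddm1-1 library and take their spread from the Col Wt pair and the ddm1-1 ARE//AGe pair. The CHH at 10377768, at 11% and 13% in Col Wt A and B and 0 in 3 ddm1-1 libraries, was called lower (limma adjusted p = 0.0414). Leaving out Col Wt A, leaving out Col Wt B, or adding the block of columns as a term each left 0 calls, and leaving out ddm1-1 or Col Ctr//AGe rMf gave 157 and 154, so the count of calls depended on single libraries.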

How the data were processed

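Per the labels' protocols, flower DNA was treated with bisulfite before sequencing. FastQC 0.11.9, HISAT2, Bismark and the build TAIR10 are listed in the submitters' processing notes, and coverage minimum and conversion rate are not given in these sources. The deposited values are signed levels in whole percent (the sign marks the strand and was removed), without counts, so levels carry no interval. Entries rc and blanks were treated as missing. Block 1 of the 5 column blocks served as the reference, and the rows of blocks 2 to 5 slip against the coordinate. A hidden Markov model of the signs (displacements up to 40 rows, sign error 0.003, change rate 0.004, least posterior 0.9) realigned these rows. Signs then matched in at least 99.953% of rows compared, but the model aligns by sign, so this match is no measure of accuracy. On slips simulated at the model's own rates, 99.97% of the rows it kept were right. Col Wt A and B then correlated at r = 0.821 across cytosines, against 0.581 as deposited.

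Targets were defined from Col AGp//AGe sMf of set A (windows of 100 bp with at least 10% methylation), and clusters from Col Wt of sets A and C. Levels average cytosines equally and were compared over libraries with a two-sided exact permutation test, with Benjamini-Hochberg adjustment over 12 tests. limma 3.58.1 in R 4.3.3 tested log2((p + 0.01)/(1 - p + 0.01)), with p the level as a fraction and the construct as a term, for cytosines above 0 in at least 2 of the 7 libraries at which the allele could be estimated. For ddm1-1 against Col, data were simulated on the 903 of the 1429 tested cytosines that had a level in all 7 libraries. It recovered 26%, 48%, 80% and 82% of shifts of 2, 4, 6 and 8 log2 units there and called 9 of 703 unchanged cytosines. Cytosines with missing levels were not simulated, so these rates do not cover calls at such positions. Named sites are the called cytosines without overlap with the largest changes per context (up to 5 each way), the CpG highest in Col of the first 500 bp of the upstream cluster, and the windows with the largest difference in the Ctr//AGe pair or the highest natural CpG level. Comparisons, regions and sites were chosen with earlier results of these data known. The clusters, the Met1-1 tests and the gained run were added after the data were seen. No sequence is shown, since none was used here.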

Additional observations from a re-analysis of the deposited data

Results flagged for a closer look

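In 3 flagged measures ddm1-1 differed from Col in one direction without a construct and in the other with Ctr//AGe. These differences between the pairs were not tested, and the list is not complete. For example, CpG in the first 500 bp of the upstream cluster was at 54.5% in ddm1-1 Wt and 61.8% and 64.2% in Col Wt A and B. With Ctr//AGe rMf it was at 67.7% in ddm1-1 and 67.0% in Col. In the AGe target CHG was higher in ddm1-1 Wt than in Col Wt by 7.14 points and lower in ddm1-1 Ctr//AGe rMf than in Col Ctr//AGe rMf (-3.20 points). CHH in the AGe target differed by 4.12 and -1.83 points. CpG in the upstream cluster differed by -2.60 points without a construct and by 5.45 with Ctr//AGe.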

How the results depend on the processing

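No paired analysis was possible because only Col Wt carries replicate letters in set B and each ddm1-1 group has 1 library. With all 5 Col libraries, 4 differences passed 0.05 in the exact permutation test before adjustment: CpG outside the targets and the CpG-only part of the upstream cluster (-2.33 points, p = 0.0317), CHH outside the targets (0.283, p = 0.0476), CpG in the downstream cluster (-22.4, p = 0.0159) and CpG outside targets and clusters (1.05, p = 0.0159). With rows as deposited, CHG and CHH outside the targets (-0.690 and -0.0615) and CpG of the upstream cluster (-1.14) reversed, and the differences shrank to -5.97 in the downstream cluster, -0.222 in the middle cluster and -0.463 for CpG outside the targets and the CpG-only part. The upstream cluster ranged from -0.693 to 3.05 with single libraries left out, and the downstream cluster from -28.8 to -24.0. Without the gained run, left out after the data were seen, CpG outside targets and clusters differed by 0.284. Of the alternatives to the natural level differences, 94 kept direction and side of the 0.05 threshold, though not always size, 4 passed it and 4 reversed. The 4 that passed it all used the 5 Col libraries. With 4 libraries against 3 no p can fall below 0.0571, and with a library left out the limit is higher. The side of the threshold was thus fixed in advance in those settings and is no sign of stability.

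Target differences without a construct moved as follows. With rows as deposited, AGp CpG became 2.73, AGp CHG 1.67, AGe CpG 2.15 and AGe CHG 3.10. Without cytosines at 0 in all of set B, AGp CHG became 6.74. With a 20% domain threshold, under which the CpG-only domain was not found, AGp CpG became 3.40, AGp CHG 10.02, AGe CpG 4.54 and AGe CHH 4.64. With windows weighted equally, AGp CHG became 7.95, AGp CHH 2.94, AGe CpG 4.97 and AGe CHH 4.82. On cytosines with a level in all 7 libraries, AGp CpG became -12.1, AGp CHG -1.66 and AGe CpG 4.41. In the Ctr//AGe pair, rows as deposited gave AGp CHG 1.25 and AGe CpG 8.12. The 20% threshold gave AGp CpG 2.00, CHG 4.92 and CHH 4.14. Equal windows gave AGp CpG -3.44 and CHG 3.72, and shared cytosines AGp CHG 4.44 and CHH 0.609.

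Against 30 limma calls, an offset of 0.05 gave 2, no filter 84, a filter of above 0 in at least 4 libraries 5, and the block of columns as a term 0. Leaving out Col Wt A or Col Wt B gave 0, ddm1-1 ARE//AGe sMf 66, ddm1-1 ARE//AGe rMf 69, Col Ctr//AGe rMf 154 and ddm1-1 Ctr//AGe rMf 157. The CHH at 10377768 was called in 4 of its 10 alternatives, the CpG at 10390583 in 4 of 14, at 10390586 in 6 of 13 and at 10388693 in 11 of 15. The causes were not tested.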
